A study of Mus musculus with 4 samples.

Results

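The genes described here encode 10 proteins of the DNA damage and replication checkpoint, and their mRNAs were measured in mouse embryonic fibroblasts (MEFs) that kept, lost or regained the retinoblastoma protein Rb. They are the kinases Atm, Atr, Chek1, Chek2 and Wee1, the ATR partner Atrip, the ATR activator Topbp1, and the replication fork adaptors Clspn (claspin), Timeless and Tipin. Probes were taken by gene symbol, which found 9 of the 10 genes among 30872 symbols on the array. Atrip was found through its Entrez gene number, since its probe carries the older name 6620401K05Rik. Together the 10 genes have 25 probes.

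Expression was measured on 4 Illumina MouseWG-6 v2.0 BeadChip arrays, 1 per condition. All 4 cultures were MEFs of strain FVB;129 whose Rb alleles are flanked by LoxP sites. Parental MEFs received a solution without TAT-Cre and medium without virus, and so kept endogenous Rb. Rb-deleted MEFs received TAT-Cre, a cell-permeable recombinase that removes the floxed Rb segment, and medium without virus. The other 2 cultures received TAT-Cre and a retrovirus that expressed HA-tagged Rb at a physiological level. It was wild type (WT Rb-HA, here WT Rb MEFs) or had lost the Cdk sites at which Rb is phosphorylated (ΔCdk Rb-HA, here ΔCdk Rb MEFs). Each TAT-Cre, virus or control treatment was given 2 times for 1 hr, 3 hr apart. From the study's methods, though not from the labels, all 4 cultures were contact arrested in early G1 phase, released and exposed to doxorubicin, a topoisomerase II poison that breaks DNA, before RNA was isolated. Hence there is no array without DNA damage, and no array that received a virus without Rb.

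ATM and ATR are related protein kinases that start the checkpoint. ATM answers DNA double-strand breaks and activates Chk2 (Chek2). ATR, held by its partner ATRIP on single-stranded DNA coated with replication protein A (RPA) and switched on by TopBP1, activates Chk1 (Chek1). Claspin brings Chk1 to ATR, while Timeless and Tipin form a complex that travels with the replication fork and assists claspin. Wee1 phosphorylates and restrains Cdk1 and Cdk2, so that cells do not enter mitosis with damaged or unreplicated DNA. Rb binds E2F transcription factors in G1 phase and represses many genes of DNA replication, some of which are checkpoint genes.

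Sequences of 2 kinds bear on the values below. The first is a pair of Tipin probes that share 20 of their 50 bases, shown since they gave very different signals. The shared bases are in capitals.
Tipin, transcript position 791: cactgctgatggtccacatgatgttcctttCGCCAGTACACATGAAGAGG
Tipin, transcript position 820: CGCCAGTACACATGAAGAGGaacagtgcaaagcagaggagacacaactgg
The second is the region around the start of transcription, shown because some of these genes differed together between arrays. RefSeq windows (GRCm38.p6, 250 bases before to 50 after a start) matched 8 of the 10 genes, with none for Tipin and Wee1. They were searched on both strands for 4 spellings of the E2F site (TTTGGCGC, TTTGCCGC, TTTCGCGC and TTTCCCGC). Clspn, Chek2 and Topbp1 hold a match, 3 of 8 windows, while 2.26% of all 32851 windows do. Of these 3 genes Clspn alone passed 1.6-fold between arrays in the values below, and Topbp1 was detected on no array. Each match stands in capitals within 30 bases of the gene's strand, where it reads as the reverse complement of a listed spelling.
Clspn, chr4:126556990-126557019, plus strand: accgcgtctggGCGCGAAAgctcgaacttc
Chek2, chr5:110839820-110839849, plus strand: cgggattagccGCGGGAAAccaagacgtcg
Topbp1, chr9:103305187-103305216, plus strand: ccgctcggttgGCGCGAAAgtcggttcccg
Counted from the window's start site, the first base of the match lies at 22 in Clspn, at -152 in Chek2 and at -129 in Topbp1. These start sites lie 23, 183 and 160 bases inside the annotated genes, so all 3 matches are downstream of the annotated gene start. No window of the 8 holds the cell cycle homology element TTTGAA, which 17.9% of all windows hold. The start site of the Timeless window lies 6003 bases inside the annotated gene, and none of the 4 spellings is in that window. These matches are a description of letters, with no factor binding measured here.

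Signal over background differed little between arrays. A probe's intensity is the average over its beads, a median of 44 beads, and a probe was called detected where its detection p-value was below 0.01. Between 15950 and 16740 probes were detected per array, and the lowest detected intensity lay between 53.8 and 58.4. Rb1 itself, at its brighter probe, read 543 in parental MEFs and between 160 and 181 after TAT-Cre, the infected cultures included, so it follows the TAT-Cre label but not the virus. Whether the probe lies in the deleted segment was not checked. All 8 fibroblast markers were detected on all 4 arrays. Their log2 ratios to parental ran from -0.73 to 0.37 in Rb-deleted, from -0.60 to 0.37 in WT Rb and from -0.98 to 0.23 in ΔCdk Rb MEFs. Of 8 macrophage markers 5 were detected, and their summed intensity was 3599 for parental MEFs, 1435 for Rb-deleted, 1161 for WT Rb and 1279 for ΔCdk Rb MEFs, so it moves with every ratio to parental given here. Ptprc, Itgam and Fcer1g, which also mark these cells, were not detected. None of 4 endothelial markers was detected, and the summed intensity of the epithelial markers lay between 206 and 249. The part of other cells in the checkpoint values was not tested. In these bulk cultures a change in the share of cells and a change in RNA per cell cannot be told apart.

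Of the 10 genes, 6 were detected on all 4 arrays (Atm, Atr, Atrip, Clspn, Timeless and Tipin), 2 on some arrays (Wee1 and Chek2) and 2 on none (Chek1 and Topbp1). The 3 fork adaptors were higher without Rb and with ΔCdk Rb than in parental MEFs, with WT Rb in between. Wee1 was highest in Rb-deleted MEFs and lower with either form of Rb. Atm and Atrip were slightly higher in Rb-deleted MEFs and lowest with ΔCdk Rb, and Atr was highest in parental MEFs. With 1 array per condition no test between conditions is possible, so differences are given as log2 ratios of normalized intensity with the bead standard error (SE), which covers only the spread between beads of an array. A gene was counted as higher or lower where its ratio passed 1.6-fold, 0.68 on the log2 scale, the filter of the study.

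**Figure D1:**
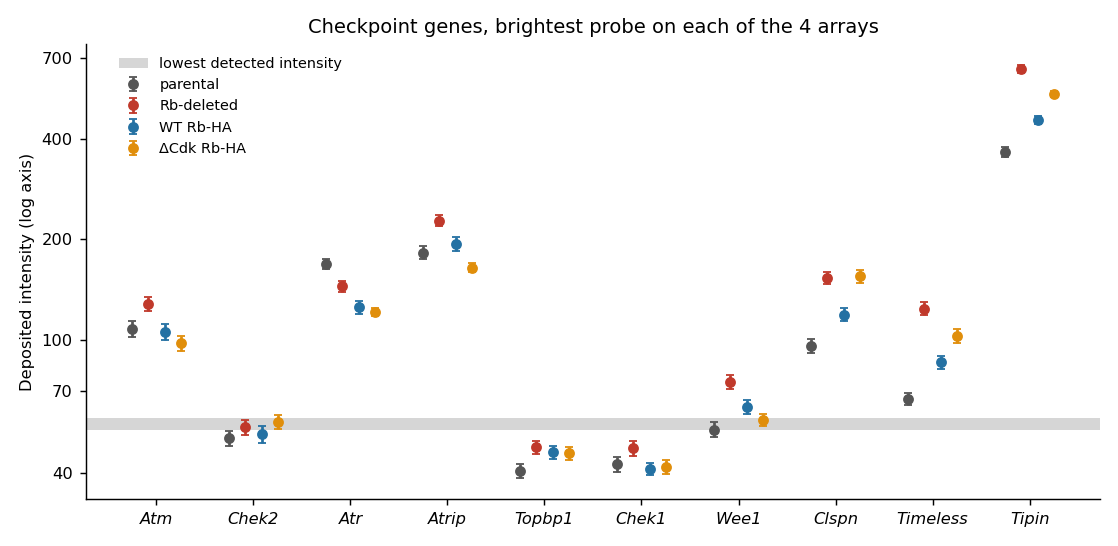
Deposited intensity (log axis) of the brightest probe of each gene on the 4 arrays; bars are bead standard errors and the grey band spans the lowest detected intensity of the arrays. Tipin ran from 366 to 649, while the probes of Topbp1 and Chek1 stayed below the band on every array; levels are to be compared between arrays of 1 gene, not between genes.

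Timeless, the scaffold of the fork protection complex, had the highest ratio of Rb-deleted to parental MEFs among the 8 detected genes, though with a normexp offset of 50 it stood at 0.81 and Tipin at 0.85. Its detected probe, at transcript position 4283, read 66.6 in parental MEFs (bead SE 2.72), 124 in Rb-deleted (5.55), 85.6 in WT Rb (3.93) and 103 in ΔCdk Rb MEFs (4.77). The order was Rb-deleted, ΔCdk Rb, WT Rb, parental, and each step was larger than the bead SE of its 2 arrays. As log2 ratios to parental these are 1.24 (SE 0.12), 0.51 (0.13) and 0.91 (0.13) for Rb-deleted, WT Rb and ΔCdk Rb MEFs. In Rb-deleted MEFs the ratio ranked 25 from the top of 12616 detected genes.

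Tipin, the small partner that stabilizes Timeless, followed the same order. Its bright probe, at position 791, read 366 in parental MEFs (12.9), 649 in Rb-deleted (18.5), 456 in WT Rb (12.5) and 547 in ΔCdk Rb MEFs (11.3). Log2 ratios to parental were 0.92 (SE 0.07), 0.39 (0.07) and 0.71 (0.06), and the first ranked 95 of 12616. Among the 8 detected checkpoint genes these ratios have the smallest bead error.

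Clspn, which holds Chk1 near ATR, differed from the other adaptors in one respect. The probe at position 4665 read 95.9 in parental MEFs (4.57), 153 in Rb-deleted (5.96), 119 in WT Rb (5.26) and 155 in ΔCdk Rb MEFs (6.68). Here the Rb-deleted and ΔCdk Rb arrays did not differ beyond bead error, with a log2 ratio of 0.05 (SE 0.10) between them. Ratios to parental were 0.87 (0.11), 0.41 (0.12) and 0.92 (0.12), and the Rb-deleted value ranked 124 of 12616.

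Wee1, the inhibitory kinase of Cdk1 and Cdk2, was dim. Its probe at position 3283 read 53.8 in parental MEFs (2.77), where it was not detected, then 74.8 in Rb-deleted (3.75), 62.8 in WT Rb (3.09) and 57.5 in ΔCdk Rb MEFs (2.37). The Rb-deleted array stood above the other 3. Its normalized log2 ratio to parental was 0.79 (SE 0.17), but against an undetected parental signal the ratio is a bound, at least 1.57-fold, and thus just short of 1.6-fold. Where both arrays detected it, Wee1 was lower than in Rb-deleted MEFs by a log2 ratio of -0.46 (0.16) with WT Rb and -0.62 (0.15) with ΔCdk Rb.

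**Figure D2:**
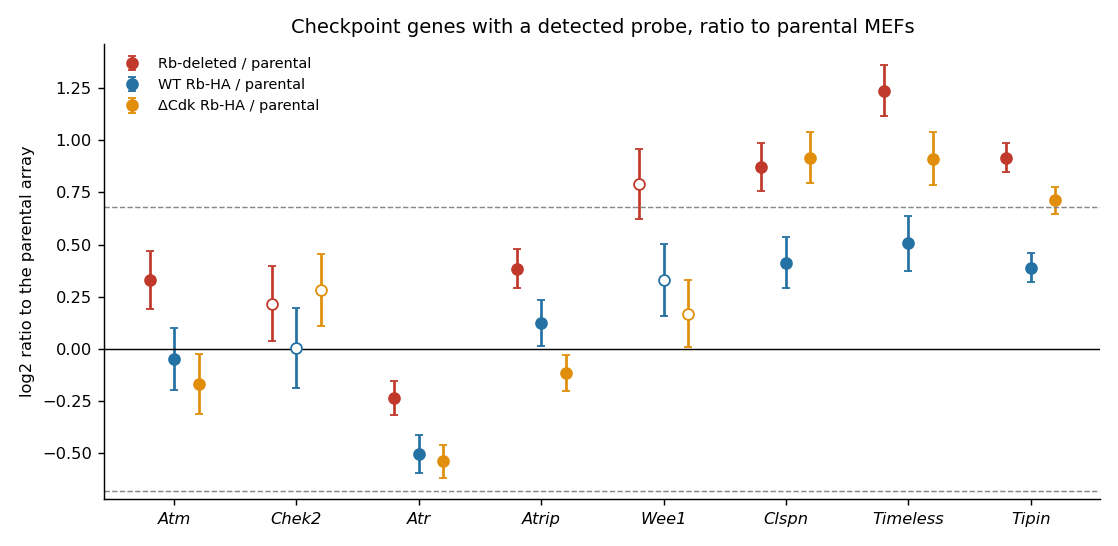
Log2 ratio to the parental array for the 8 genes with a detected probe; bars are bead standard errors, dashed lines mark 1.6-fold, and open points mark a probe not detected on at least 1 array of the pair. Clspn, Timeless and Tipin lie past the upper line on the Rb-deleted and ΔCdk Rb arrays and below it on the WT Rb array.

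The apex kinases and Atrip moved less. Atm read 108 (6.02), 128 (6.41), 106 (5.69) and 97.6 (4.85) on the parental, Rb-deleted, WT Rb and ΔCdk Rb arrays at position 9402. A second Atm probe, at 9239, gave the same order of the outer arrays, with 99.9 on the Rb-deleted and 71.4 on the ΔCdk Rb array. At that probe ΔCdk Rb stood below Rb-deleted MEFs by a log2 ratio of -0.69 (SE 0.12), past 1.6-fold, and below parental by -0.29 (0.14). Log2 ratios to parental at the brighter probe were 0.33 (SE 0.14), -0.05 (0.15) and -0.17 (0.14), so that only the first exceeded 2 bead SE.

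Atrip read 182 (8.06), 228 (8.25), 194 (9.34) and 165 (4.91) on the same arrays. Its ratios to parental were 0.38 (SE 0.09), 0.12 (0.11) and -0.12 (0.09). Atm and Atrip thus shared the order Rb-deleted highest, ΔCdk Rb lowest, and between these 2 arrays each differed by a log2 ratio of -0.50.

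Atr, in contrast, was highest in parental MEFs. Its single probe read 169 (5.42), 144 (5.12), 125 (5.54) and 121 (3.70), and the last 2 arrays did not differ beyond bead error. Log2 ratios to parental were -0.24 (SE 0.08), -0.50 (0.09) and -0.54 (0.08). It was the only 1 of the 8 detected genes with a lower value in Rb-deleted than in parental MEFs.

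The effector kinases could hardly be followed on these arrays. Chek2 was at the edge of detection, with 50.7 (2.58), 54.7 (2.85), 52.1 (3.06) and 56.8 (2.82) at position 1532, detected on the Rb-deleted and ΔCdk Rb arrays only. None of its 6 ratios between arrays exceeded 2 bead SE. All 3 Chek1 probes lay below the detection limit on all 4 arrays, with intensities between 30.6 and 47.5, and the 1 Topbp1 probe likewise, between 40.4 and 47.7. No fold is given for either gene, and their mRNA levels are unknown here.

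Against parental MEFs, 3 of the 8 detected genes (Clspn, Timeless and Tipin) were detected on both arrays and past 1.6-fold higher in Rb-deleted MEFs. The normalized ratio of Wee1 makes 4, though its bound falls short, and counted in that way 2.14% of all 12616 detected genes passed. None was past 1.6-fold lower, where 2.98% of all genes were. In ΔCdk Rb MEFs 3 of 8 were higher (Clspn, Timeless and Tipin) beside 2.58% of all genes, and none lower beside 3.3%. In WT Rb MEFs none of 8 was higher beside 0.888% of all genes, and none lower beside 2.46%. Median log2 ratios of the 8 genes were 0.59, 0.23 and 0.23 in Rb-deleted, WT Rb and ΔCdk Rb MEFs, and those of all detected genes were 0.02, 0.01 and -0.01. Over the 6 checkpoint genes detected on all 4 arrays the medians were 0.63, 0.26 and 0.30. The 3 comparisons share the parental array, and only that array lacked TAT-Cre, so loss of Rb and exposure to TAT-Cre cannot be told apart in them. Detection itself favours genes that are bright on some array, and 2 of the 10 genes could not enter these counts. The count of normalized ratios in Rb-deleted MEFs was 2 rather than 4 when all detected probes of a gene were averaged, which left Clspn at 0.35 and Tipin at 0.48, and also 2 with a normexp offset of 50, which left Clspn at 0.64 and Wee1 at 0.42. Each of these settings gave 1 rather than 3 with ΔCdk Rb.

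Compared with Rb-deleted MEFs, all 8 detected genes read lower in WT Rb MEFs, by log2 ratios from -0.73 to -0.21 with a median of -0.42. Chek2, at -0.21, was not detected in WT Rb MEFs and entered through the arrays where it was higher. The 7 genes detected on both arrays ran from -0.73 to -0.26. Among all genes 53.7% read lower. The difference exceeded 2 bead SE for 7 of the 8, Chek2 being the exception, where 18.8% of all genes were lower by as much. Past 1.6-fold there was 1 gene, Timeless (-0.73, SE 0.12), beside 0.484% of all genes. It fell short of 1.6-fold, with 0 genes past it, when no background was corrected. On the log2 scale the WT Rb array had lost 59.1% of the Timeless excess of Rb-deleted over parental MEFs, 57.5% of that of Tipin and 52.6% of that of Clspn. The Clspn share depends on the probe, since at the overlapping probe at position 4660 WT Rb MEFs read no higher than parental (-0.05). In ΔCdk Rb MEFs 6 of 8 genes were below Rb-deleted MEFs by over 2 bead SE, while 27.1% of all genes were. None was past 1.6-fold lower at the probe that stood for its gene, beside 1.95% of all genes, though Atm was at its second probe (-0.69). The corresponding losses were 26.4% for Timeless and 22.3% for Tipin, with none for Clspn. For Wee1, whose parental signal was not detected, the order was the other way, 58.2% with WT Rb and 78.7% with ΔCdk Rb. These genes were taken as high on the Rb-deleted array, which enters both sides of each share, so some loss may follow from that choice alone. The comparisons of WT Rb and of ΔCdk Rb with Rb-deleted MEFs set an infected against an uninfected culture, so the virus and the Rb it carried cannot be told apart.

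ΔCdk Rb and WT Rb MEFs both received a retrovirus and differ in the form of Rb, and here the adaptors lay above 0 and the other genes below it, Chek2 excepted. The fork adaptors were higher with ΔCdk Rb, Clspn by 0.50 (SE 0.11), Timeless by 0.40 (0.13) and Tipin by 0.32 (0.05) on the log2 scale. With the mean of all detected Tipin probes its difference was 0.07. Atrip was lower, at -0.24 (0.10), and Atm, Atr and Wee1 lay between -0.16 and -0.04, all within 2 bead SE. Chek2 was at 0.28 (0.19), with no detected signal in WT Rb MEFs. None of the 8 passed 1.6-fold upward, where 0.84% of all genes did, and the lowest of them, Atrip, stood at -0.24. Of all genes 17.6% were higher with ΔCdk Rb by over 2 bead SE.

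**Figure D3:**
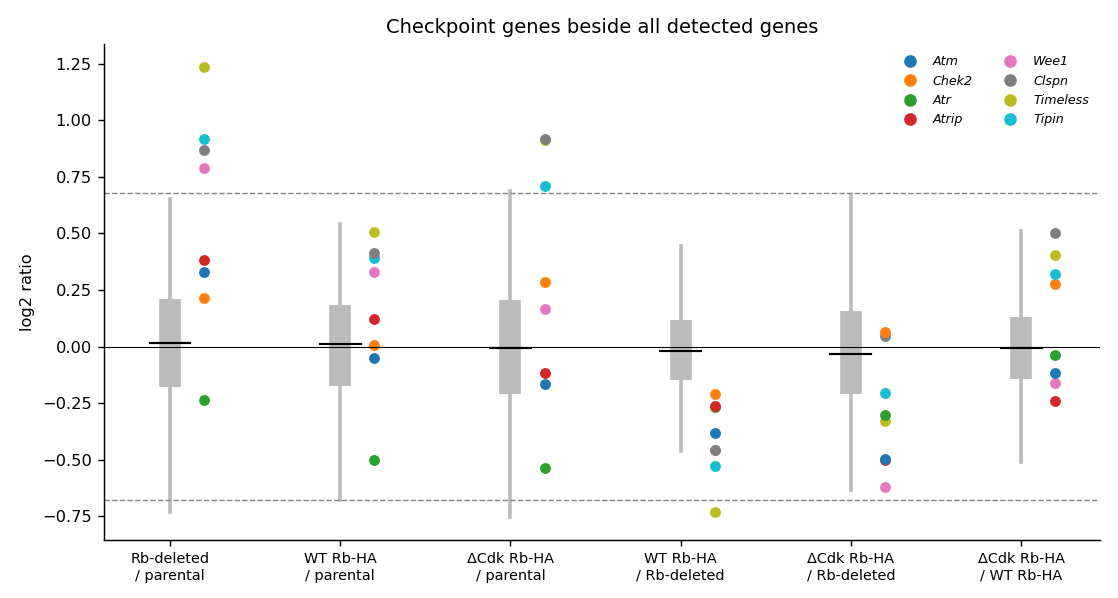
Log2 ratios of the 8 detected genes (coloured points) in the 6 comparisons between arrays, beside all 12616 detected genes (grey; black line median, thick bar middle 50%, thin bar middle 95%); dashed lines mark 1.6-fold. In the Rb-deleted to parental ratio Timeless, Tipin, Clspn and Wee1 lie above the middle 95% of all genes, which ends at 0.65.

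Probes of 1 gene did not always give 1 answer. A pair of Clspn probes, at positions 4660 and 4665, share 45 of 50 bases. The first read 98.8 (6.22), 114 (4.11), 96.8 (3.34) and 126 (4.34) on the parental, Rb-deleted, WT Rb and ΔCdk Rb arrays, which makes a Rb-deleted to parental log2 ratio of 0.29 (SE 0.14) against 0.87 at the second. The second minus the first makes 0.58 (0.18). Between the ΔCdk Rb and Rb-deleted arrays it was only -0.14 (0.14), and between ΔCdk Rb and WT Rb -0.02 (0.15), so that the pair parted in ratios to the parental array. ΔCdk Rb stood above WT Rb at both. The other two Clspn probes gave less. That at 491 had a ratio of 0.24, and that at 3509, not detected on all arrays, of 0.01.

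The Tipin probe at position 820, shown above beside that at 791, read only 49.2, 50.4, 60.0 and 51.8 on the same arrays and was detected on the WT Rb array alone. Another dim Tipin probe, at 194, gave 52.0, 61.8, 59.1 and 63.9, lowest in parental MEFs as at 791. The remaining one, at 20, read 48.8, 58.2, 48.6 and 48.1, with the Rb-deleted array highest and the only one that detected it. For Timeless, Wee1, Atr and Atrip a single detected probe carries the value. In all, 9 of the 25 probes were detected on all 4 arrays, 7 on some and 9 on none.

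**Figure D4:**
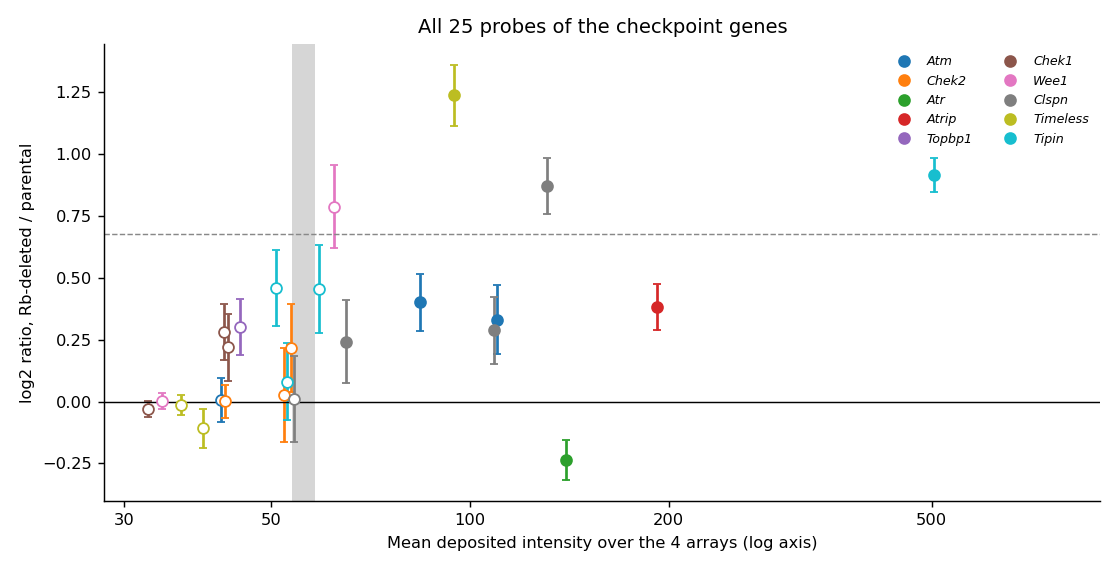
Log2 ratio of Rb-deleted to parental MEFs for each of the 25 probes against the mean deposited intensity over the 4 arrays (log axis); bars are bead standard errors, open points mark probes not detected on all arrays, the grey band spans the lowest detected intensities and the dashed line marks 1.6-fold. Probes left of the band lie within 0.5 of 0, and the 3 Clspn probes detected on all arrays spread from 0.24 to 0.87.

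The rest of the pathway was read from 6 lists, which hold 46 genes on the array, 36 of them detected. In Rb-deleted MEFs 6 of the 36 were past 1.6-fold above parental (2.14% of all genes) and none below (2.98%), with a median log2 ratio of 0.21. In ΔCdk Rb MEFs 7 were above (2.58% of all genes) and in WT Rb MEFs 2 were (0.888%). None was below in either, beside 3.3% and 2.46% of all genes. Fork partners made up 5 of the 6. From WT Rb to ΔCdk Rb MEFs none passed 1.6-fold upward, where 0.84% of all genes did, and the lowest log2 ratio was -0.35. Genes named below that did not pass were chosen after their values were seen.

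Fork partners of the adaptors showed the largest ratios, with 5 of 7 past 1.6-fold in Rb-deleted MEFs, beside 2.14% of all genes, and a median of 1.09. Wdhd1, which ties the replicative helicase to DNA polymerase alpha, read 59.3, 150, 91.3 and 117 on the parental, Rb-deleted, WT Rb and ΔCdk Rb arrays. Its ratios to parental were 1.84 (SE 0.12), 0.90 (0.12) and 1.41 (0.12). Rpa1 and Rpa2 encode the large and middle subunits of RPA, the platform on which ATRIP sits. Rpa1 read 1098, 2496, 1431 and 1912 and Rpa2 79.2, 140, 116 and 140 on the 4 arrays. The Rb-deleted ratios were 1.28 (0.05) and 1.10 (0.14). Cdc7, the kinase that fires origins, gave 1.09 (0.10), and Cdc45l (Cdc45), a helicase component, gave 0.81 (0.15). Rpa3, the small RPA subunit, gave 0.62, and Dbf4, the activator of Cdc7, gave -0.19. With ΔCdk Rb 6 of these 7 genes were past 1.6-fold above parental MEFs, all but Dbf4, beside 2.58% of all genes. With WT Rb 2 were, Wdhd1 and Rpa2, beside 0.888%.

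Upstream parts of the checkpoint stayed within 1.6-fold, as most genes did. In Rb-deleted MEFs 2.14% of all genes were past it upward and 2.98% downward. The checkpoint clamp, its loader and ATR activators (6 of 6 detected) ranged in Rb-deleted MEFs from -0.10 for Hus1, a clamp subunit, to 0.61 for Etaa1, an RPA-bound activator of ATR. Sensors and mediators of the ATM branch ranged from -0.08 to 0.39 over the 6 detected genes, with Nbn, Mdc1, Brca1 and Bard1 not detected. Among effectors 8 of 10 were detected and 1 passed (2.14% of all genes), Cdk2, at 0.68 (SE 0.06) just past the threshold. Cdc2a (Cdk1), the mitotic kinase that Wee1 restrains, was at 0.52 (0.06) in Rb-deleted and 0.76 (0.07) in ΔCdk Rb MEFs. Cdkn1a (p21), a p53 target, was at 0.06, -0.09 and -0.11 in the 3 cultures. Off switches and turnover factors of claspin and Wee1 ranged from -0.22 to 0.14 in Rb-deleted MEFs over 5 detected genes.

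Detected members of the ATM and ATR kinase family were, like Atr and unlike Atm, highest in parental MEFs. Over the 4 detected genes of that list the median ratio was -0.22 without Rb, -0.24 with WT Rb and -0.50 with ΔCdk Rb. Smg1 (listed as 2610207I05Rik), a kinase of nonsense-mediated mRNA decay, read 793, 659, 552 and 512 on the 4 arrays. Frap1 (mTOR) read 199, 170, 159 and 140, and Trrap, a member of the family without kinase activity, read 497, 417, 446 and 346. All 3 were lowest in ΔCdk Rb MEFs, as Atr was (within bead error of WT Rb), but so were Atm and Atrip. None of the 3 was past 1.6-fold below parental there, where 3.3% of all genes were. Tti1 (listed as 2610036D13Rik), a cochaperone of the family, was at 0.15 in Rb-deleted and -0.14 in ΔCdk Rb MEFs.

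**Figure D5:**
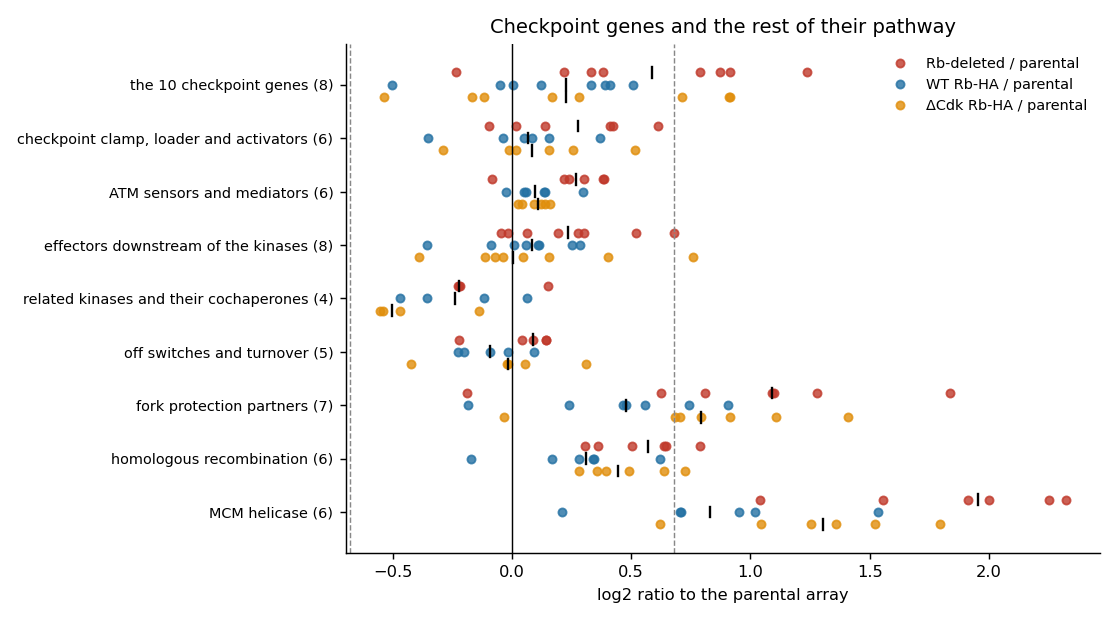
Log2 ratio to the parental array of each detected gene of the 10 checkpoint genes, the 6 pathway lists and 2 further lists, with the number of detected genes in brackets; points are genes, coloured by array, short black lines are medians and dashed lines mark 1.6-fold. Fork partners and MCM genes lie furthest right on the Rb-deleted array, with medians of 1.09 and 1.96, while 3 of the 4 related kinases and cochaperones lie left of 0 on that array.

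Genes of DNA replication and of recombination are the nearest relatives to set beside these values. All 6 MCM helicase genes were past 1.6-fold above parental in Rb-deleted MEFs (2.14% of all genes), with a median of 1.96. In each of the infected cultures 5 of 6 were (0.888% of all genes with WT Rb and 2.58% with ΔCdk Rb), with medians of 0.83 and 1.31. All 6 were also past 1.6-fold lower with WT Rb than without Rb (0.484% of all genes), where of the checkpoint genes Timeless alone was. Of 10 homologous recombination genes 6 were detected, 2 of them on all 4 arrays, with a median of 0.57 in Rb-deleted MEFs. Past 1.6-fold was 1 of them (2.14% of all genes), Blm, a DNA helicase, at 0.79 (SE 0.13). That median rests on ratios to probes not detected in parental MEFs, so it is not set beside that of the checkpoint genes. With 1 array per condition the differences between these lists could not be tested.

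Patterns were compared by the Euclidean distance over the 3 log2 ratios to parental, among 10044 genes detected on all 4 arrays. Left out were the checkpoint genes and entries named only by a number, clone or predicted locus, though clone names ending in Rik were kept. The pattern of Timeless was nearest to that of Rpa1, at a distance of 0.06. E2f1, an E2F factor held by Rb, followed at 0.16. Then came Pold1, the catalytic subunit of DNA polymerase delta, at 0.22, Fignl1 at 0.22 and 4833427B12Rik at 0.24. All these distances rest on 4 arrays and a shared parental array.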

How the data were processed

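RNA of 4 MEF cultures was hybridised to MouseWG-6 v2.0 arrays, 1 per condition, grouped by the labels. The authors deposited, per probe and array, an unnormalized bead-averaged intensity, a detection p-value, a bead standard error and a bead count. The number of arrays limits the precision, and SEs cover beads only. The study's text refers to an earlier publication for array processing.

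Starting from these values, background was corrected by normexp with an offset of 16 (limma 3.58.1, R 4.3.3), followed by quantile normalization and log2. Probes were kept if the detection p-value fell below 0.01 on any array, and the brightest probe stood for its gene (12616 genes). Bead SEs were carried through each array's mapping. A bound was given where 1 array of a pair did not detect a probe, against the higher of its own value and the lowest detected value there. No p-value was computed. Python 3.11.15, numpy 2.4.6 and pandas 2.3.3 did the rest, checked on simulated data.

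The genes, lists, tests and marker sets were chosen with earlier results of these data known. Genes of the lists were named where past 1.6-fold in Rb-deleted over parental or ΔCdk Rb over WT Rb MEFs, and others after their values were seen. Promoter windows and probe letters were read from RefSeq (GRCm38.p6) and the deposited table. One listed turnover gene, Hers, matched no gene. Alternatives changed the background correction, offset, normalization, detection filter, probes per gene and fold threshold.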

Additional observations from a re-analysis of the deposited data

How the results depend on the processing

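Of 84 counts and medians of the checkpoint genes under other settings, 70 stayed within 1.5 times the count or within 2 bead SE of the median, no median moved by more, and no direction reversed. That yardstick is wide for the small medians. With the mean of detected probes the median of WT Rb over parental went from 0.23 to 0.07, and that of ΔCdk Rb over WT Rb from 0.12 to 0.02. The 12 counts and medians under the looser detection filter were unchanged, since each gene kept its probe. The median in Rb-deleted over parental MEFs, 0.59, was 0.37 with an offset of 50 and 0.38 with the mean of detected probes. The count of normalized ratios past 1.6-fold there, 4 as reported, was 2 with an offset of 50, 2 with the mean of detected probes and 1 at 2-fold. For ΔCdk Rb over parental, 3 as reported, it was 1 without background correction, 1 with an offset of 50, 1 with the mean of detected probes and 0 at 2-fold. For WT Rb over Rb-deleted, 1 as reported, it was 0 without background correction, 0 with an offset of 50, 0 at 2-fold and 2 at 1.4-fold. At 1.4-fold WT Rb over parental gave 2, ΔCdk Rb over Rb-deleted 3 and ΔCdk Rb over WT Rb 1, each 0 as reported. Timeless in Rb-deleted over parental MEFs stayed past 1.6-fold in every setting (0.81 to 1.28), whereas Clspn spanned 0.35 to 0.89, Tipin 0.48 to 0.92 and Wee1 0.42 to 0.82. The low ends of Clspn and Tipin came from the mean of detected probes. Timeless and Wee1 have 1 detected probe each, so that setting could not move them and the spans are not alike. In ΔCdk Rb over parental MEFs the spans were 0.42 to 0.94 for Clspn, 0.57 to 0.96 for Timeless and 0.33 to 0.71 for Tipin. Between ΔCdk Rb and WT Rb MEFs the Tipin ratio of 0.32 was 0.07 with the mean of detected probes. A larger offset pulls dim probes toward 0 by construction, and for the averaging of probes the cause was not tested. Of 276 ratios of single genes 263 moved by less than 2 bead SE. Among these, 48 under the looser detection filter and 36 under detection on all 4 arrays kept their probe and value, so they could not move. Nor could the ratios of Atr, Atrip, Timeless and Wee1 under the mean of detected probes, since each has 1 detected probe. The sign of the Chek2 ratio of WT Rb to parental (-0.11 to 0.08) was not settled. No paired analysis was possible because each condition has 1 array. Signal near background limits Chek1, Chek2, Topbp1 and Wee1.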

Other observations

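A shorter, 7-letter E2F spelling, the 8-letter one without its first T, was searched after the longer matches had been seen. It is in 5 of the 8 windows of the checkpoint genes, those of Clspn, Chek2 and Topbp1, where it overlaps the longer match, and those of Chek1 and Atm, and in 9.57% of all 32851 windows. On the gene's strand, with the match in capitals, the 2 added stretches read as follows.
Chek1, chr9:36726609-36726638, minus strand: cagcatgacgcaagcaggttttgGCGGGAA
Atm, chr9:53536638-53536667, minus strand: tagagccggaaGCGGGAAggcgtgcgtaca
Chek1 was detected on no array, and Atm was within 1.6-fold of parental on all 3 other arrays. Tipin and Wee1 have no window and the Timeless one lies inside the gene, so whether matches go with the genes that differed was not tested.

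The median pattern of the 6 checkpoint genes detected on all 4 arrays (log2 ratios to parental of 0.63, 0.26 and 0.30 for Rb-deleted, WT Rb and ΔCdk Rb) was nearest to 1700025G04Rik, C230082I21Rik, Mum1, 5730494J16Rik and Hspa12b, at distances from 0.05 to 0.07. Of the 10 genes, 6 lie on chromosome 9 (Atm, Atr, Atrip, Chek1, Tipin and Topbp1), and among the 4 of these that were detected, Atr and Tipin stood at opposite ends of the Rb-deleted over parental ratios, -0.24 and 0.92.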
